A study of Homo sapiens with 24 samples.

Results

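The washout course after 100 nM rotenone was followed on 6 of the 24 arrays of the series, chosen by their titles. They were the 3 arrays of LUHMES aggregates collected on day 8, at the end of 24 h with 100 nM rotenone, and the 3 arrays of aggregates given the same exposure and collected on day 15. LUHMES is a conditionally immortalized human mesencephalic line, grown here as 3D aggregates in wells on a shaker, in a differentiation medium with cAMP, GDNF, tetracycline and N2. Exposure began on day 7 of differentiation in all groups. After 24 h the aggregates of the later group were moved to fresh medium without rotenone, which left 7 days of recovery. The DMSO groups of day 8 and day 15, with 3 arrays each, received the vehicle at the amount of the 100 nM dose. The group with 50 nM rotenone for 24 h on day 8 was used to choose genes, and the groups with 50 nM for 12 h and the day 15 group of 50 nM for 24 h entered only the common fit. Every sample was total RNA from pooled aggregates of a single cell line, and nothing in the labels says that the 3 samples of a group came from separate cultures. The p values therefore measure the spread between these samples, which may be technical. The question was what the exposed aggregates changed between the end of exposure and the end of recovery.

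Rotenone blocks complex I, the entry point of electrons from NADH into the mitochondrial respiratory chain, and cells then depend more on glycolysis for ATP. LUHMES cells divide while v-myc is expressed. Tetracycline in the medium shuts v-myc off, the cells leave the cell cycle, and over the following days they extend neurites and acquire channels, receptors and synaptic proteins. Any change between day 8 and day 15 in the exposed aggregates can thus combine recovery with ageing of the neurons, among other effects of the exposure. The DMSO aggregates show ageing without rotenone. For exposed aggregates the study also reports a gradual loss of cells after washout and a lasting inhibition of complex I. The part of cell loss and of lasting inhibition in the changes below was not tested. In bulk RNA, fewer cells of a type and less RNA per cell cannot be told apart.

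Between 50.9% and 82.4% of spots were well above background on the 24 arrays, and the 6 arrays used here gave 50.9% to 70.2%. Each slide held 1 array of every group. The labels mark replicate 1 of the groups as lying on a repeated slide in need of batch correction, and the slide was kept as a block. On each slide all day 8 arrays lay in a single row with the day 15 arrays in the other, so that day and place on the slide cannot be told apart. Replicate 3 of the 100 nM group on day 15 stood apart. Its residual SD on the log2 scale was 0.396, against 0.189 to 0.266 for the other arrays. Among the 9431 genes with a mean log2 level below 6 it was 0.536, and among the 3421 genes above 10 it was 0.0926, within the range of 0.0601 to 0.152 on the arrays of other groups. The scan name of day 15 DMSO replicate 1 gives 12 h and does not name DMSO, so its group rests on its label.

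From day 8 to day 15 in the 100 nM aggregates, limma called 3820 of 21324 genes (17.9%) at a fold change over 1.5 and a Benjamini-Hochberg adjusted p under 0.05. Of these, 1640 genes (7.69% of all) rose and 2180 (10.2%) fell. More than 2-fold changes were found for 714 rising and 814 falling genes, and more than 4-fold changes for 127 and 109. On the brighter day, 1426 of the rising and 1973 of the falling genes had a probe that was well above background on every array. The arrays of the days did not overlap for 45.7% of all genes, with day 15 above day 8 for 20.2% and below it for 25.5%. The log2 change was above 0 for 46.8% of genes and below 0 for 53.2%, whatever its p. Without replicate 3 of day 15, 1599 genes rose and 1745 fell, and 2886 genes were called in the same direction with and without it. The split between directions depended on the scaling. The share of rising genes among the calls was 42.9% with quantile normalization, at a median log2 change of -0.035 over all genes, and 62.1% after scaling to the 75th percentile of an array, at a median of 0.15. With the scanner software's processed signal it was 66.3%, at a median of 0.245.

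The largest increase among genes well above background on all 6 arrays was that of SCGN, which encodes the calcium-binding protein secretagogin. Levels are log2 intensities with the slide effect removed. SCGN stood at 7.80, 8.09 and 8.03 on the day 8 arrays and at 12.44, 12.30 and 12.27 on the day 15 arrays, a log2 change of 4.36 (SE 0.14, adjusted p = 1.6e-12). The days lay far apart compared with the spread of the arrays within a day. CBLN2, a secreted organizer of synapses, rose from 8.55, 8.64 and 8.66 to 12.51, 12.79 and 12.56, by 4.003 (SE 0.10). CDH18, a cadherin of neurons, rose from 7.22, 7.49 and 7.55 to 10.73, 10.83 and 10.80, by 3.36 (SE 0.10). Also among the 12 largest increases were AKR1C3, an aldo-keto reductase of steroids and prostaglandins (3.66), TMEM117 (3.62), TCEAL2 (3.60), the actin-capping TMOD1 (3.41), the tyrosine phosphatase PTPN3 (3.40), the lipid phosphatase PLPP2 (3.34) and the non-coding DPH6-DT (3.31). CD86, a costimulatory receptor of immune cells, was measured with more spread. Its 1 probe gave 6.23, 7.62 and 6.34 on day 8 and 11.34, 10.22 and 9.73 on day 15, a change of 3.70 (SE 0.77, adjusted p = 0.0013).

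The largest decrease was that of IFITM1, an interferon-inducible membrane protein. It stood at 11.96, 10.80 and 10.70 on day 8 and at 4.94, 5.42 and 4.96 on day 15, a log2 change of -6.05 (SE 0.39, adjusted p = 5.4e-09), or 66.1-fold. OLIG1, a basic helix-loop-helix factor of neural progenitors and the oligodendrocyte lineage, fell from 12.43, 12.69 and 12.70 to 7.04, 7.25 and 7.03 (log2 change -5.50, SE 0.19). The days were separated for both genes by many times the spread of the arrays. TNC, the matrix glycoprotein tenascin C, fell from 10.63, 10.28 and 10.30 to 5.90, 6.37 and 4.83 (-4.70, SE 0.30), where the lowest value was that of replicate 3, and the change without this array was -4.20. GAL, the precursor of the neuropeptide galanin, fell from 12.09, 11.92 and 11.90 to 7.92, 7.74 and 7.35 (-4.30, SE 0.17). The other members of the 12 were ECEL1, a neuronal peptidase (-4.70), BDKRB2, the bradykinin B2 receptor (-4.19), WFIKKN1, a secreted antagonist of myostatin (-4.17), the growth factor VEGFD (-4.08), the proneural factor NEUROD4 (-3.97), the prostaglandin D2 synthase PTGDS (-3.91), PAPPA, which cleaves IGF-binding proteins (-3.86), and the keratin KRT19 (-3.85).

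**Figure D1:**
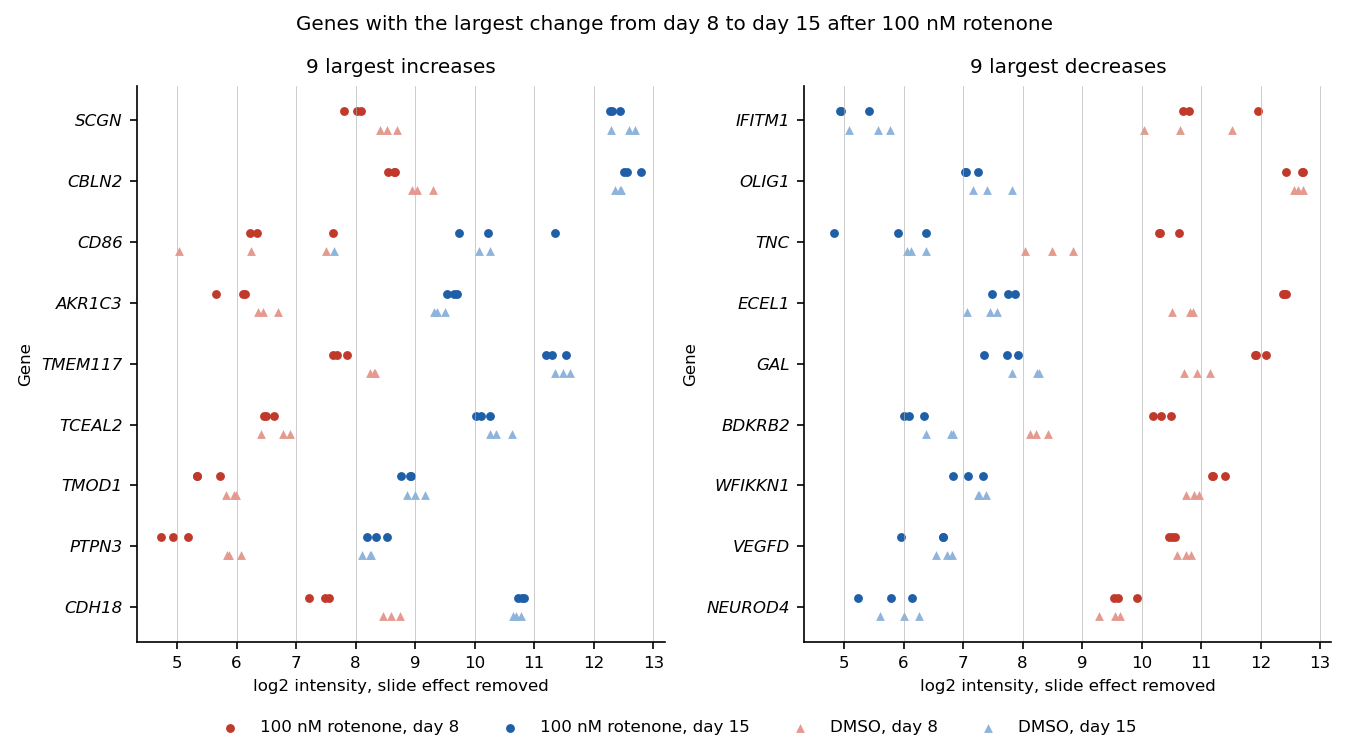
Levels per array (log2 intensity with the slide effect removed, horizontal axis) of the 9 genes with the largest increase (left) and the 9 with the largest decrease (right) in the 100 nM course, among genes called and well above background on all 6 arrays. Circles are 100 nM arrays and triangles DMSO arrays, red for day 8 and blue for day 15, 3 arrays per group. In all 18 genes the circles of the days do not overlap, as the rule that chose them required.

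Some genes were well above background on only 1 of the days, and their fold change is given as a bound. Dim levels below the lowest signal well above background on their array were raised to that signal, and others entered as measured. MYH8, a developmental myosin heavy chain, was not well above background on any day 8 array and stood at 9.61, 8.70 and 9.32 on day 15, at least 37.6-fold higher. SLITRK3, an adhesion protein of inhibitory synapses, was at least 10.2-fold higher and the adhesion receptor ADGRG2 at least 6.07-fold. The prohormone convertase PCSK2 was 6.30-fold higher as measured. Its day 8 levels of 3.80, 4.65 and 3.65 all lay above the signal used for the bound. In the other direction, F3, the tissue factor of blood clotting, was at least 7.58-fold lower on day 15 and LILRB5, an immunoglobulin-like receptor of leukocytes, at least 4.79-fold. The phosphatase INPP5D was at least 4.51-fold lower, and MCUB, a subunit of the mitochondrial calcium uniporter, at least 3.66-fold. Measured folds were 7.62 for F3 and 4.59 for INPP5D, close to these bounds. The myosin heavy chains are a family of similar genes, and whether the MYH8 probe also reads another member was not tested.

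The vehicle aggregates ran a course of their own over the same days. Between the DMSO groups, limma called 2611 genes (12.2%), 1277 up (5.99%) and 1334 down (6.26%). In both courses the same direction was called for 1785 genes and opposite directions for 3, while 2032 genes were called only with 100 nM and 823 only in DMSO. A gene called in a single course is not thereby shown to differ between them. The courses share no array, and over all 21324 genes, which are not independent, their log2 changes correlated at r = 0.735. Over the genes called in DMSO the value was 0.926, with a slope of 0.949 of the 100 nM change on the DMSO change, and 96.7% had the same sign. SCGN rose by 3.98 in DMSO, IFITM1 fell by 5.26 and OLIG1 fell by 5.17, and their differences from the 100 nM course (0.38, SE 0.19; -0.79, SE 0.55; and -0.34, SE 0.27) were not called.

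The difference between the courses was tested directly, as the day 15 minus day 8 change with 100 nM minus that in DMSO. Limma called 443 genes (2.08%), of which 210 (0.985%) moved more upward with 100 nM and 233 (1.09%) more downward. Among the former, 92 rose with 100 nM and were not called in DMSO, 32 rose in both courses, 25 fell only in DMSO and 51 were called in neither. The remaining genes of this group were 8 that fell in both courses and 2 that rose with 100 nM and fell in DMSO. Among the latter, 100 fell with 100 nM and were not called in DMSO, 36 fell in both, 42 rose only in DMSO and 48 were called in neither, besides 6 that rose in both and 1 that fell with 100 nM and rose in DMSO. These counts rest on all 8 groups in the fit. With the 12 arrays of 100 nM and DMSO alone they were 12 and 12, without the day 15 DMSO array of the doubtful scan name 174 and 226.

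**Figure D2:**
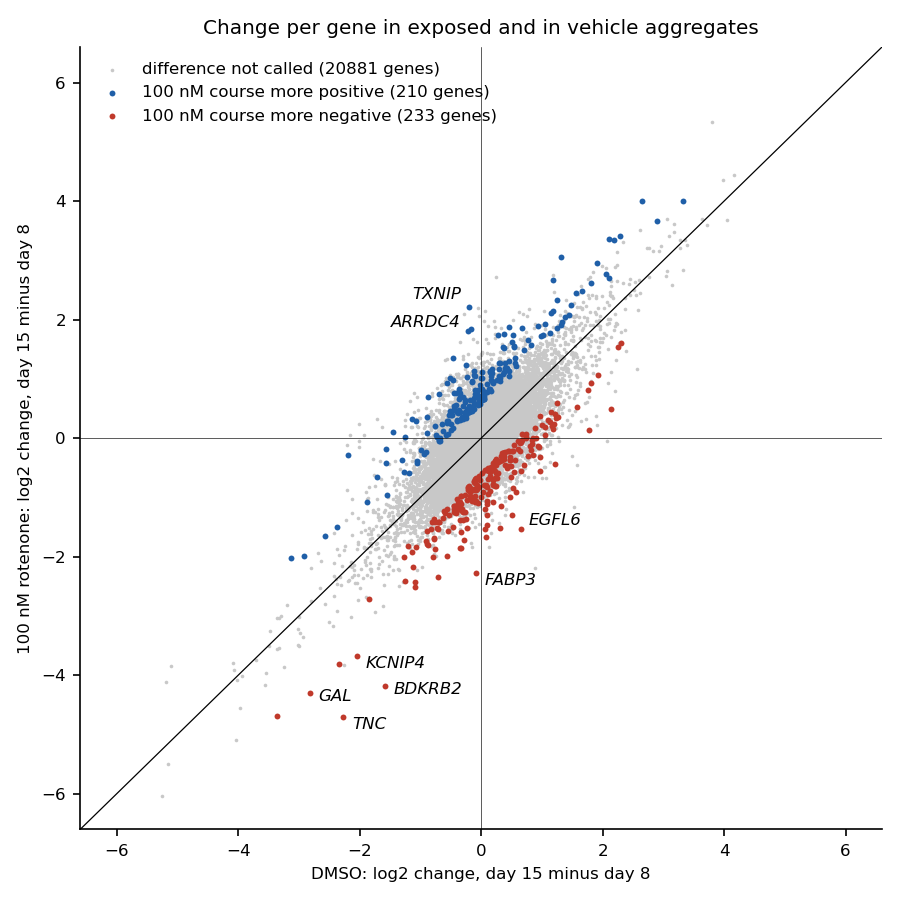
Log2 change from day 15 minus day 8 of every gene tested in DMSO (horizontal axis) and with 100 nM rotenone (vertical axis), with the line of equal change. Most of the 21324 points follow the line, and the 210 blue and 233 red genes are those whose difference between the courses was called.

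Among the genes whose change was more positive with 100 nM, TXNIP had the largest difference, followed by ARRDC4. TXNIP binds thioredoxin and limits glucose uptake, ARRDC4 is a related alpha-arrestin, and both are known as targets of MondoA and its relatives, factors that sense glucose metabolites through E-box sequences. Their promoters are shown because both genes had nearly the same course. They are windows around the gene start, most of each upstream of it, from RefSeq on GRCh38.p14, written 5′ to 3′ on the strand of the gene, chr1:145996530-145996829 on the minus strand for TXNIP and chr15:97960453-97960752 on the plus strand for ARRDC4. Capitals mark matches on either strand to CACGTG, the palindromic E-box, and to the related CACGAG.
TXNIP: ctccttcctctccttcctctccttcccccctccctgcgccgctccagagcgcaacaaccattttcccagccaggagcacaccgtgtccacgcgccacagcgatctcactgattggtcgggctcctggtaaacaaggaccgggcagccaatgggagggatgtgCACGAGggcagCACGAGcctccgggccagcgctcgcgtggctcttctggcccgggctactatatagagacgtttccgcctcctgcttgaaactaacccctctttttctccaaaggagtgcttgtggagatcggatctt
ARRDC4: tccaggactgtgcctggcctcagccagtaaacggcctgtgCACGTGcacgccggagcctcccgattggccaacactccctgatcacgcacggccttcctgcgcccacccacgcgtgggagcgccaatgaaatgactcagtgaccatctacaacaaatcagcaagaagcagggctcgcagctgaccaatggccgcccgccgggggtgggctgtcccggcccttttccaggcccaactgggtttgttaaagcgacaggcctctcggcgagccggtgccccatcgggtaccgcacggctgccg
The TXNIP window holds CACGAG at -88 and again at -77 from the start, and no CACGTG. The ARRDC4 window holds CACGTG at -210. Of all 27305 promoters of this length, 7.43% hold CACGTG, 6.79% hold CACGAG and 0.311% hold CACGAG at least 2 times. A match of letters is a description and not a binding site.

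TXNIP stood at 9.67, 10.01 and 9.92 after 24 h with 100 nM and at 12.08, 12.05 and 12.09 after recovery, a log2 change of 2.21 (SE 0.14, adjusted p = 4.7e-09) or 4.62-fold. In DMSO it stood at 12.61, 12.33 and 12.33 on day 8 and at 12.00, 12.47 and 12.20 on day 15, a change of -0.20 (adjusted p = 0.35). The exposed aggregates were thus low only on day 8, and their day 15 arrays fell within the range of the DMSO arrays. The courses differed by 2.41 (SE 0.20, adjusted p = 7.1e-06). ARRDC4 rose from 5.45, 5.89 and 5.79 to 7.53, 7.50 and 7.53 with 100 nM, by 1.81 (SE 0.14), while DMSO arrays lay between 7.53 and 7.96 on both days (difference 2.02, adjusted p = 8.1e-05). Of the other alpha-arrestins, ARRDC3 fell by 0.85, a call lost without replicate 3 of day 15 (-0.57) and in 5 other settings, and ARRDC1 (0.11) and ARRDC2 (-0.09) did not pass.

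SPMIP6, a sperm microtubule protein by name, rose from 6.78, 6.73 and 7.21 to 8.93, 8.71 and 8.60, against 8.85 to 8.93 in DMSO on day 8 (difference 2.01, adjusted p = 0.00061). GPR39, a zinc-sensing receptor, rose by 1.34 with 100 nM and changed by -0.47 in DMSO (difference 1.81). The protocadherin PCDH8 rose in both courses, by 3.05 with 100 nM and by 1.32 in DMSO, and its 100 nM arrays started lower, at 6.73 to 7.16 against 8.32 to 8.66, and ended between 9.85 and 10.05 against 9.56 to 9.96. H1-10-AS1, an antisense RNA at a linker histone gene, showed another form. It did not pass with 100 nM, at 7.06 on day 8 and 6.78 on day 15 (adjusted p = 0.061), whereas in DMSO it fell by 2.19 to 6.81. The DMSO group of day 8 alone stood apart from the other groups.

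Of the genes with the most negative difference, FABP3, a fatty acid carrier, returned to the DMSO level. It stood at 9.99, 9.50 and 9.65 after exposure and at 7.44, 7.43 and 7.46 after recovery, a change of -2.28 (SE 0.18, adjusted p = 6.8e-08), while the DMSO arrays of both days lay between 7.16 and 7.64 (difference -2.19, adjusted p = 0.00032). BDKRB2 and TNC fell in both courses from different starts. BDKRB2 began at 10.49, 10.32 and 10.19 with 100 nM and at 8.22, 8.13 and 8.42 in DMSO, and on day 15 the means were 6.15 and 6.67 (difference -2.60, SE 0.19, adjusted p = 4.5e-06). TNC began at a mean of 10.40 with 100 nM and 8.46 in DMSO and ended at 5.70 and 6.19 (difference -2.43, adjusted p = 0.0053). The call for TNC was lost with 12 arrays in the fit or with slides 2 and 3 alone.

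EGFL6, a secreted EGF-repeat protein, fell with 100 nM from 6.29 to 4.75, with 2 of 3 day 15 arrays well above background, and rose in DMSO from 5.05 to 5.70 (difference -2.18). CDC42EP1, an effector of the GTPase CDC42, fell from 6.53 to 5.01 with 100 nM (difference -1.83). Its day 15 arrays stood at 5.60, 5.19 and 4.23, the last being replicate 3, and the difference was -1.39 without it. This call too was lost in those settings and without the slide block. PRR5-ARHGAP8, a readthrough transcript that overlaps its parent genes, had a difference of -1.81 (adjusted p = 0.047). That call was lost in 11 of the settings tried, among them the removal of any day 8 DMSO array.

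**Figure D3:**
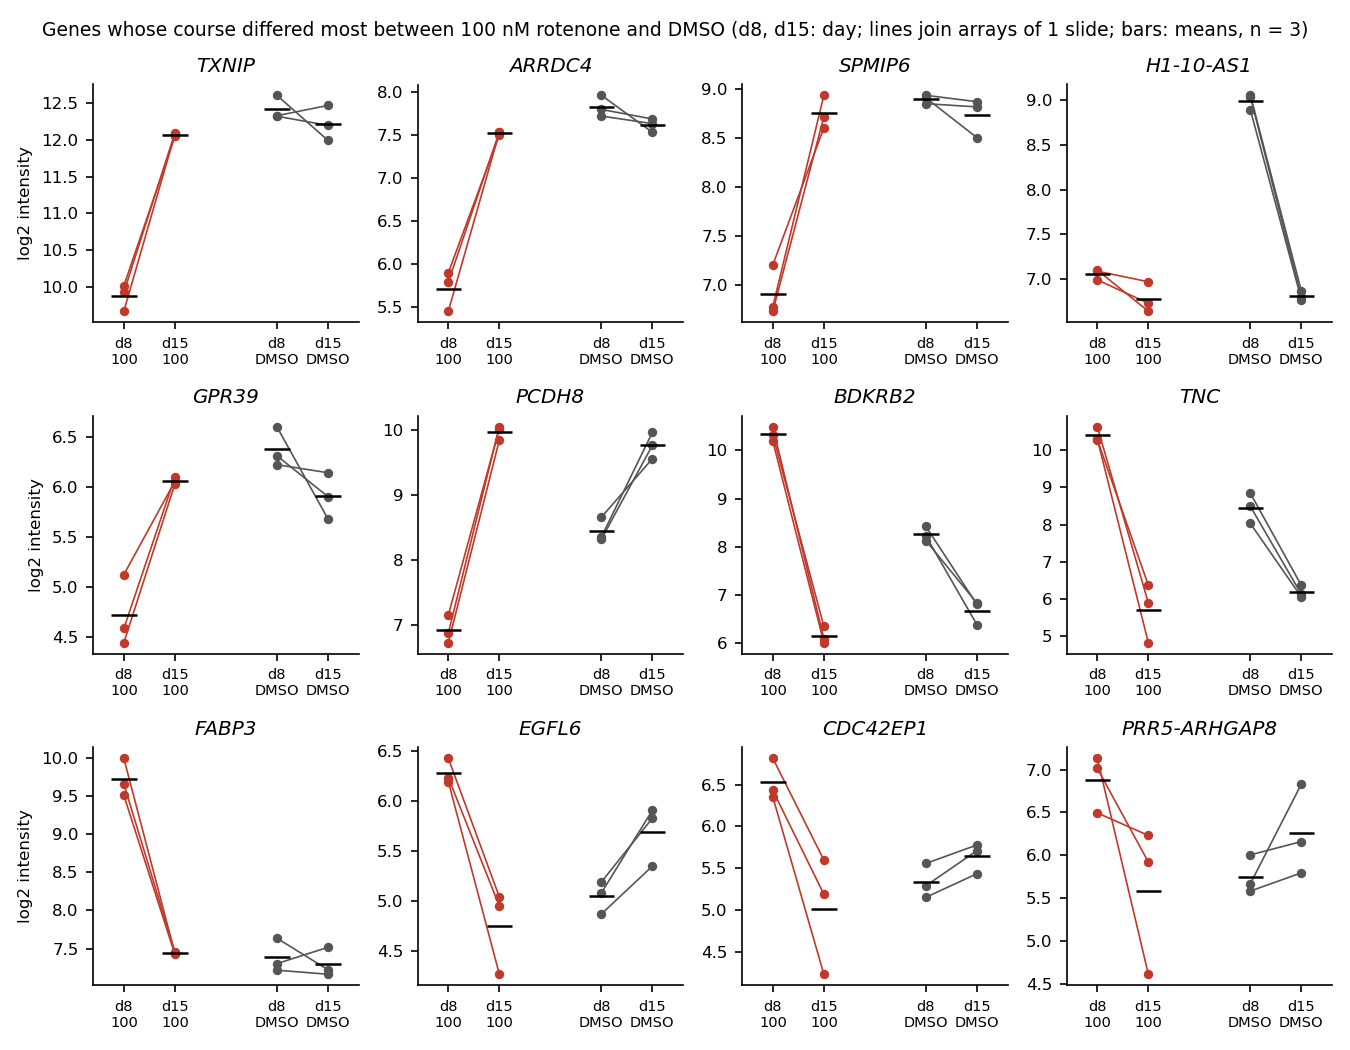
Log2 intensity with the slide effect removed (vertical axis, own range per gene) in the 100 nM groups (red) and DMSO groups (grey) on day 8 (d8) and day 15 (d15) for the 6 genes with the largest positive and the 6 with the largest negative difference between the courses. Points are arrays, lines join the arrays of a slide and bars are means of 3. TXNIP, ARRDC4, SPMIP6 and FABP3 changed with 100 nM and had nearly level lines in DMSO, and H1-10-AS1 changed in DMSO.

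To describe how genes of the exposure behaved during washout with arrays that the course does not use, genes were chosen between 50 nM rotenone for 24 h and DMSO on day 8. Limma called 603 genes there (2.83%), 294 higher (1.38%) and 309 lower (1.45%) with 50 nM. Of the 294 genes raised by 50 nM, 185 (62.9%) fell in the 100 nM course, 13 rose and 96 were not called, at a median log2 change of -0.81 (quartiles -1.23 and -0.30). Of the 309 genes lowered by 50 nM, 153 (49.5%) rose, 14 fell and 142 were not called, at a median of 0.57 (quartiles 0.13 and 1.05). Over all genes 10.2% fell and 7.69% rose, at a median of -0.035. In the DMSO course, which shares its day 8 arrays with this choice, the medians were -0.04 and -0.16. Of the 294 genes, 54 fell and 50 rose in DMSO, and of the 309 genes 50 rose and 56 fell. Over all genes 6.26% fell and 5.99% rose in DMSO. The 185 and 153 genes thus include some that moved the same way in DMSO, ECEL1 and CBLN2 among them. Without replicate 3 of day 15 in the course, 176 of the same 294 genes fell (59.9%) and 159 of the same 309 rose (51.5%), where 8.18% and 7.50% of all genes fell and rose.

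**Figure D4:**
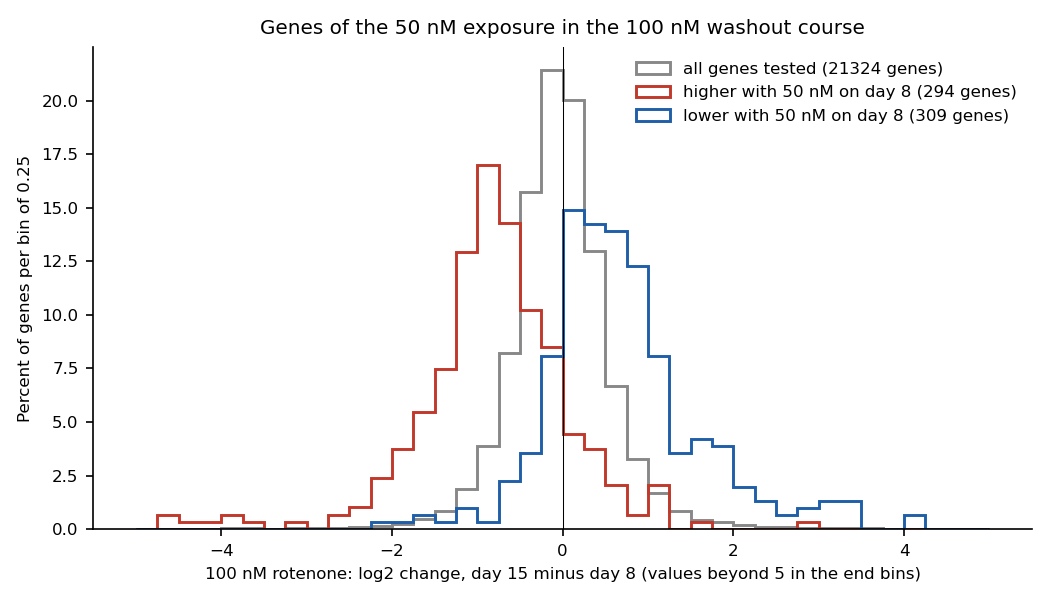
Share of genes (percent per bin of 0.25, vertical axis) by their log2 change from day 8 to day 15 with 100 nM rotenone (horizontal axis), for all 21324 genes (grey), the 294 genes higher with 50 nM on day 8 (red) and the 309 lower with 50 nM (blue). The red distribution has its median at -0.81 and the blue at 0.57, on opposite sides of that of all genes at -0.035.

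Cell cycle genes fell. Of 49 genes tested, 25 fell (51.0%, against 10.2% of all genes), 1 rose and 23 did not pass, at a median log2 change of -0.79. In DMSO 32 fell and 1 rose, at a median of -1.08, and 0 of the 49 had a called difference between the courses, with limma's test. E2F1, a driver of entry into S phase, fell from 6.37, 6.03 and 5.80 to 4.25, 4.19 and 4.51 (-1.75, SE 0.21, adjusted p = 6.1e-06), with 2 of 3 day 15 arrays well above background. The mitotic kinesin KIF11 fell by 1.83 and the centromere protein CENPF by 2.02. Cyclin B2 (CCNB2, -2.17), survivin (BIRC5, -2.08) and thymidylate synthase (TYMS, -2.16) moved alike. CCNE1, cyclin E1, was the rising gene, from 8.90, 9.03 and 9.02 to 9.71, 9.66 and 9.74. PCNA stood at 9.79 on both days, and the proliferation marker MKI67 was well above background on only 1 of 3 arrays on each day. With scaling to the 75th percentile 18 genes of the list fell and with the processed signal 20, at medians 0.670 and 0.815 below those of all genes.

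Promoters of many cell cycle genes carry a CCAAT box, bound by NF-Y, and the cell cycle homology element TTTGAA, bound by the MuvB complexes that repress these genes in resting cells. Promoters of this length were found for 37 of the 49 genes and for 19 of the 25 that fell. Both motifs, searched on either strand, stood together in 8 of these 19 (42.1%) and in 6.08% of all promoters, CCAAT in 73.7% and 35.7%, and TTTGAA in 52.6% and 15.4%. In the whole list both stood in 35.1%. The windows of KIF11 and CENPF, which fell and hold both motifs, are shown as examples with the motifs in capitals. They lie at chr10:92592880-92593179 for KIF11 and chr1:214602945-214603244 for CENPF, both on the plus strand of GRCh38.p14 and from RefSeq.
KIF11: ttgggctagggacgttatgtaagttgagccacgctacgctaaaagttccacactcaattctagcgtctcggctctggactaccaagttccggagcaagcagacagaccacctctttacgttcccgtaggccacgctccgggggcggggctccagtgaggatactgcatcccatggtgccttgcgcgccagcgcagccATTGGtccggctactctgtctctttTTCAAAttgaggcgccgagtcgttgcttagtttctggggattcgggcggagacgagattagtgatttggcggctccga
CENPF: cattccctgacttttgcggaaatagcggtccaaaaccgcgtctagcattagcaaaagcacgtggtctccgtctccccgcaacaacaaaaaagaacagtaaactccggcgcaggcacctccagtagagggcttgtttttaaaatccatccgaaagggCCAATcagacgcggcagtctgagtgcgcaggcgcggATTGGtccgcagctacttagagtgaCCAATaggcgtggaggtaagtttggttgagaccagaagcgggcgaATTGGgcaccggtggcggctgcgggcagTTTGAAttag
KIF11 has CCAAT on the opposite strand at -53 and TTTGAA on the opposite strand at -28. CENPF has 4 CCAAT matches, at -94, -58, -33 and 12, and TTTGAA at 40. Its levels were 6.93, 7.05 and 6.46 on day 8 and 4.91, 4.76 and 4.71 on day 15.

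Genes of neural progenitors and the Notch pathway fell in 12 of 31 cases (38.7%, against 10.2% of all genes), with 2 rising and a median of -0.34. After OLIG1 the largest decreases were those of OLIG2, its partner (-4.56, 2 of 3 day 15 arrays well above background), NEUROD4 (-3.97), and the proneural factors NEUROG1 (-3.04) and NEUROD1 (-2.24). NEUROG1 stood at 8.70, 8.35 and 8.52 on day 8 and at 5.40, 5.92 and 5.13 on day 15, with no overlap. The Notch ligand JAG1 fell by 1.97, the receptors NOTCH2 and NOTCH3 by 0.67 and 0.74, while the ligand DLL1 rose by 0.93 and the Notch target HEY1 by 0.94. INSM1, a factor of new neurons, fell by 1.57 with 100 nM and by 0.89 in DMSO, the list's called difference (-0.68, adjusted p = 0.0082). Over the whole list, 11 genes fell and 2 rose in DMSO.

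Channel and receptor genes of mature neurons rose more often than they fell. Of 29 voltage-gated sodium and calcium channel genes, 9 rose (31.03%, against 7.69% of all genes) and 2 fell, at a median of 0.35. The sodium channel SCN1A rose from 5.20, 5.43 and 5.50 to 7.43, 7.47 and 7.48 (2.09, SE 0.12). The T-type calcium channel CACNA1G rose by 2.40, with 2 of 3 day 8 arrays well above background, and the R-type CACNA1E rose too, whereas the T-type CACNA1H fell from 12.07 to 10.95. Of 37 glutamate, GABA and glycine receptor genes, 9 rose and 3 fell. The kainate receptor GRIK1 rose from 5.11, 5.61 and 5.29 to 8.67, 8.43 and 8.38 (3.16, SE 0.19) and the GABA B receptor GABBR1 by 1.22. The NMDA receptor GRIN2D fell by 1.07. The DMSO course had 9 rising and 2 falling sodium and calcium channel genes, and 7 rising and 3 falling receptor genes.

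Of 34 voltage-gated and calcium-gated potassium channel genes, 8 rose (23.5%) and 4 fell (11.8%), against 7.69% and 10.2% of all genes. KCND2, an A-type channel, stood at 6.47, 6.74 and 6.46 on day 8 and at 8.88, 9.12 and 8.93 on day 15 (2.42, SE 0.13), and the fast delayed rectifier KCNC2 rose by 2.42 as well. The largest decrease was in KCNIP4, a cytosolic partner of Kv4 channels, from 9.18, 9.03 and 9.21 to 5.76, 5.94 and 4.70 (-3.67, SE 0.23). In DMSO KCNIP4 fell by 2.05, a called difference of -1.62 (adjusted p = 0.012), and its lowest value was again that of replicate 3. KCNT1, a sodium-activated channel, fell by 2.09. Over the potassium channel list, 4 genes rose and 3 fell in DMSO.

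Of 39 genes of synaptic vesicles and release, 8 rose (20.5%, against 7.69% of all genes) and 2 fell, at a median of 0.29. RAB3B, a vesicle GTPase, rose by 2.05, synapsin 2 (SYN2) by 1.59, RIMS1 of the active zone by 1.15 and the SNARE protein SNAP25 by 0.60, while SLC32A1, the vesicular GABA transporter, fell by 1.09. Axon guidance genes rose in 10 of 40 cases (25%) and fell in 3 (7.5%, against 10.2% of all genes). The ephrin receptor EPHA4 had the largest change, from 7.46, 7.82 and 7.55 to 10.70, 10.22 and 10.35 (2.81, SE 0.17), and the netrin receptor DCC fell by 1.16. Neurofilaments and microtubule-associated proteins rose in 5 of 22 cases (MAPT by 0.85, PRPH by 0.94, NEFL by 0.67) with NEFH falling by 0.75. Their median lay 0.22 above that of all genes here. It lay 0.14 below that of all genes with scaling to the 75th percentile and 0.29 below with the processed signal. The DMSO course had 8 rising and 4 falling synaptic genes, and 8 rising and 5 falling axon guidance genes.

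The dopaminergic list of 18 genes split, with 4 rising (22.2%) and 3 falling (16.7%), against 7.69% and 10.2% of all genes. Tyrosine hydroxylase (TH), the rate-limiting enzyme of dopamine synthesis, fell from 9.95, 10.44 and 10.17 to 6.77, 6.55 and 7.18 (-3.36, SE 0.24, adjusted p = 2.3e-08). The dopamine transporter SLC6A3 fell from 8.86, 8.20 and 8.00 to 5.89, 5.92 and 5.92 (-2.44, SE 0.28), and the midbrain factor OTX2 fell by 3.74, with 1 of 3 day 15 arrays well above background. In DMSO these genes fell by 2.94, 2.05 and 3.71, and over the list 6 rose and 3 fell. The nuclear receptor NR4A2 rose from 5.87, 5.85 and 6.02 to 8.06, 8.07 and 7.82 (2.07, SE 0.15), the GDNF receptor RET by 1.43, LMX1B by 1.14 and GCH1, which makes the cofactor of TH, by 0.69. EN1 and EN2 stood at 8.91 and 9.74 on day 8 and did not pass. Of the defining markers, SLC18A2, the vesicular monoamine transporter, was not well above background on any of the 6 arrays, and DDC stood at 4.85 and 4.58.

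Of 20 genes tied to Parkinson disease, 3 rose (15%) and 0 fell by limma's adjusted p, against 7.69% and 10.2% of all genes. Day 15 arrays lay all above day 8 arrays for 7 of the 20 and all below for 3 (20.2% and 25.5% of all genes). SNCB, beta-synuclein, rose from 8.02, 7.86 and 7.57 to 9.38, 9.25 and 9.09 (1.42, SE 0.14, adjusted p = 1.1e-06), and DNAJC6, which uncoats clathrin vesicles, by 1.27. In DMSO SNCB rose by 1.57 and DNAJC6 by 1.02, and neither difference was called. The median of the list lay 0.12 above that of all genes here but 0.03 and 0.11 below it with the other scalings.

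**Figure D5:**
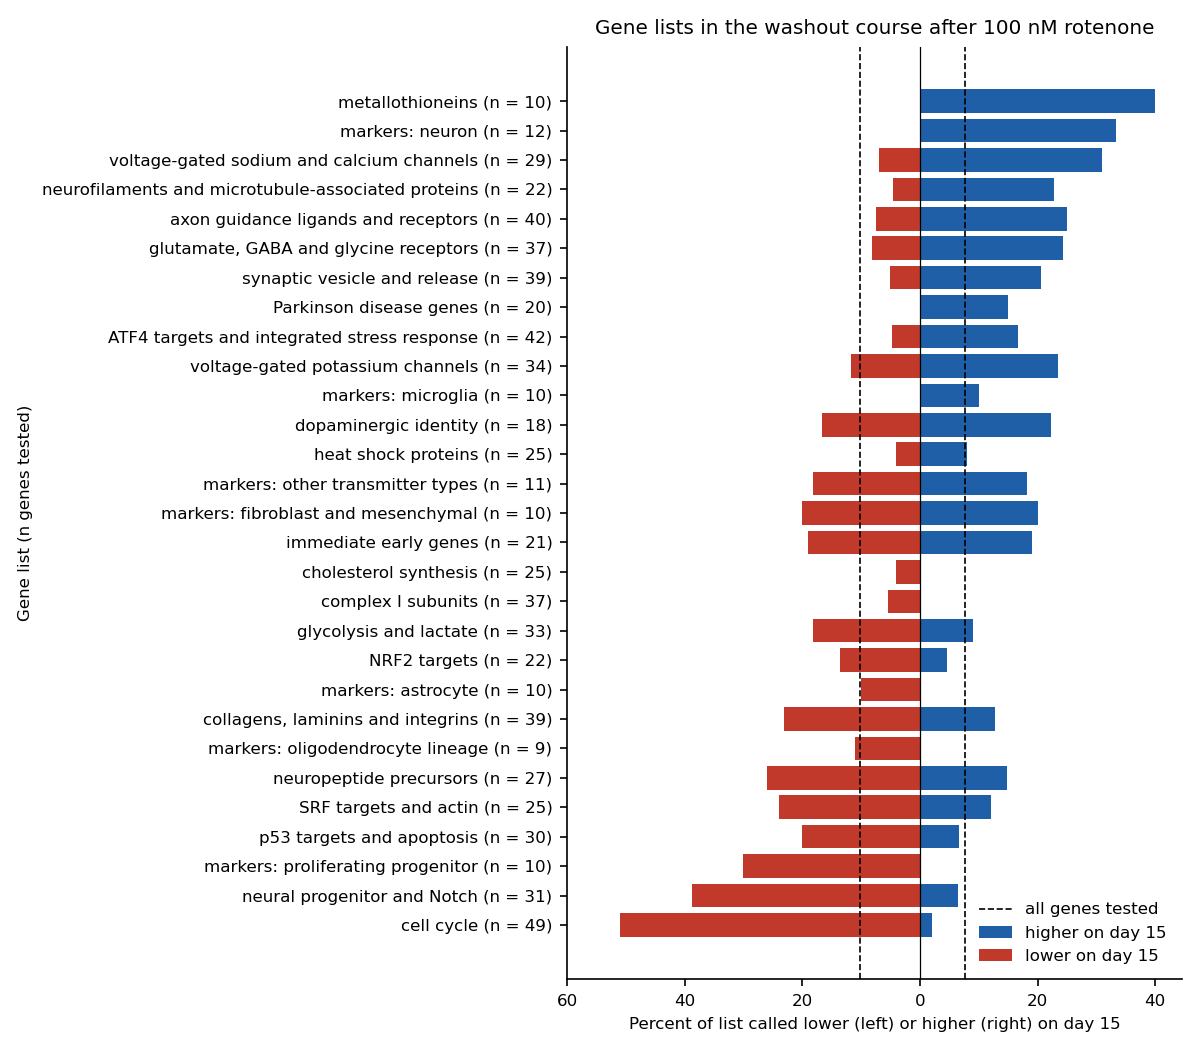
Percent of the genes of each list with at least 9 genes tested (vertical axis, with the number tested; genes named by the study are not drawn) called higher (blue, to the right) or lower (red, to the left) on day 15 than on day 8 in the 100 nM course. Dashed lines give the shares over all genes tested, 7.69% higher and 10.2% lower. The cell cycle list has the longest red bar at 51.0%, and the metallothionein list the longest blue bar drawn, at 40%.

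Stress pathways moved in both directions, with 17.9% of all genes called, 7.69% up and 10.2% down. Of 42 targets of ATF4, the factor of the integrated stress response, 7 rose (16.7%) and 2 fell (4.76%), and their median lay 0.17 above that of all genes here but 0.10 below it with either other scaling. PHGDH, the entry enzyme of serine synthesis, was the list's only gene with a called difference. It rose from 10.87, 10.88 and 10.90 to 12.14, 11.92 and 11.97 with 100 nM (1.13, SE 0.11), against 11.90 and 12.04 in DMSO (difference 0.99, adjusted p = 0.0032). CEBPB rose by 1.24 and SLC7A11, the cystine transporter, by 1.07, while ATF5 fell by 0.82 and CTH by 0.71. Heat shock proteins rose in 2 of 25 cases, HSPA12A by 1.91 and the small chaperone CRYAB by 1.45, and 1 fell (0 without replicate 3 of day 15), with a median 0.26 above that of all genes but 0.09 and 0.14 below it with the other scalings. HSPA12A rose by 1.32 in DMSO (difference 0.59, adjusted p = 0.016).

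Metallothioneins, which bind zinc and copper, rose in 4 of 10 cases (40%, against 7.69% of all genes) and fell in 0 by limma's adjusted p. MT1A rose from 11.87, 11.90 and 11.78 to 12.79, 12.65 and 12.70. In DMSO 7 rose. These genes are similar in sequence, and how far their probes share signal was not tested. Of 22 NRF2 targets, 1 rose (4.55%, or 2 without replicate 3 of day 15) and 3 fell (13.6%). Over all genes 7.69% rose and 10.2% fell. Heme oxygenase HMOX1 fell from 10.23, 10.07 and 9.67 to 8.40, 8.31 and 8.47 (-1.60, SE 0.22). Of 30 p53 targets and apoptosis genes, 2 rose (6.67%) and 6 fell (20%), and without replicate 3 of day 15 2 rose and 4 fell. HRK, a neuronal activator of apoptosis, fell from 11.11, 11.23 and 10.91 to 9.33, 8.99 and 8.92 (SE of the change 0.19) and by 0.80 in DMSO (adjusted p of the difference = 0.024), and BID fell by 1.11.

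Immediate early genes split, with 4 of 21 rising and 4 falling (19.05% each), against 7.69% and 10.2% of all genes. ARC, an activity-regulated synaptic protein, fell from 8.44, 7.80 and 7.76 to 5.72, 5.83 and 5.23 (difference from DMSO -1.16, adjusted p = 0.043), while FOS rose by 1.91, with 1 of 3 day 8 arrays well above background, and EGR1 by 1.44. Of 33 genes of glycolysis and lactate, 3 rose (9.09%) and 6 fell (18.2%), and 4 fell without replicate 3 of day 15. The glucose transporter SLC2A1 fell by 0.70 and the phosphofructokinase PFKP rose. Of 37 subunits of complex I, the target of rotenone, 2 fell, NDUFB5 by 0.91 and NDUFA7 by 0.97, and 0 rose by limma's adjusted p. Day 15 arrays lay all below day 8 arrays for 18 of the 37 and all above for 4 (25.5% and 20.2% of all genes). In DMSO 3 subunits fell and 0 rose, and 1 subunit had a called, more negative difference with 100 nM. The median of complex I was 0.02 below that of all genes here, and 0.387 and 0.515 below it with scaling to the 75th percentile and with the processed signal. Of 25 genes of cholesterol synthesis 1 fell and 0 rose with 100 nM, at a median of -0.07. In DMSO 5 rose and 0 fell, at a median of 0.34. The falling gene was DHCR7, of the last step, from 13.74, 13.72 and 13.68 to 12.82, 12.96 and 12.83, with DMSO at 12.98 and 12.76 (difference -0.62, adjusted p = 0.0051). DHCR7 was 1 of 2 genes of this list with a called difference, both more negative with 100 nM.

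Extracellular matrix genes and neuropeptides each moved both ways. Of 39 collagens, laminins, integrins and tenascins, 5 rose (12.8%) and 9 fell (23.1%), against 7.69% and 10.2% of all genes. Without replicate 3 of day 15 the numbers were 4 and 5. The median of the list lay 0.05 below that of all genes here but 0.19 above it with the processed signal. COL5A2 rose from 7.84, 8.01 and 7.80 to 9.01, 9.22 and 8.76, to the DMSO levels of 9.01 on day 8 and 9.15 on day 15 (difference 0.97, adjusted p = 0.0050). Of 27 neuropeptide precursors, 4 rose (14.8%) and 7 fell (25.9%). Somatostatin (SST) fell from 14.78, 15.03 and 14.95 to 13.75, 13.19 and 13.27. Secretogranin 2 (SCG2) rose by 0.81, and by 1.76 in DMSO (difference -0.95, adjusted p = 0.020). Of 25 SRF targets and actin genes 3 rose (12%) and 6 fell (24%), or 2 and 4 without replicate 3 of day 15. CNN1 rose by 1.62 and FHL2 fell by 1.01.

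Markers of the neuronal type were high on both days. The 12 neuron markers summed to an intensity of 285000 to 302000 on the day 8 arrays and 347000 to 386000 on the day 15 arrays, and 4 of them rose and 0 fell by limma's adjusted p, with ELAVL4 rising by 0.92. With scaling to the 75th percentile and with the processed signal 2 of them rose, and the median moved from 0.24 above that of all genes to 0.055 and 0.0091 above it. Astrocyte markers were near background, with GFAP and S100B not well above it on any of the 6 arrays, a summed intensity of 883 to 961 on day 8 and 672 to 739 on day 15, and 1 of 10 falling (SOX9, well above background on 2 of 3 day 8 arrays and 1 of 3 day 15 arrays), or 2 without replicate 3 of day 15. Of 9 oligodendrocyte lineage markers OLIG2 fell, and the sums were 1930 to 2150 and 1750 to 1770. Microglia markers summed to 211 to 240 and 253 to 271, with 1 of 10 rising (TMEM119, 2 of 3 day 8 arrays well above background), and the astrocyte and microglia calls were lost in 4 settings each. With the processed signal 4 microglia markers rose, at a median 0.644 above that of all genes against 0.041 here. Among 8 endothelial markers CLDN5 fell from 10.12 to 8.81, with KDR, PECAM1 and TEK not well above background. Of 10 fibroblast markers 2 rose and 2 fell, with COL3A1, POSTN and THY1 not well above background, and 1 rose and 0 fell without replicate 3 of day 15. With the processed signal the medians of the astrocyte, oligodendrocyte and fibroblast lists lay above that of all genes, by 0.26, 0.24 and 0.52, where here they lay below it. Progenitor markers summed to 25300 to 28600 and 28400 to 32200, with 3 of 10 falling, among them MCM2 by 0.85. Of 11 markers of other transmitters 2 rose, or 1 without replicate 3 of day 15, and 2 fell. SLC18A3, the vesicular acetylcholine transporter, rose from 10.70 to 12.29 and DBH, which makes noradrenaline, fell from 5.89 to 4.24 (2 of 3 day 15 arrays well above background). GAD1 and GAD2 were not well above background on any of the 6 arrays. Over all genes 7.69% rose and 10.2% fell. DMSO sums on day 8 and day 15 were 321000 to 344000 and 358000 to 376000 for neuron markers, 0 of them called. For astrocyte markers they were 637 to 733 and 654 to 675, so that the exposed day 8 sums alone stood apart. Oligodendrocyte markers had 2120 to 2300 and 1760 to 1780, and microglia markers 240 to 261 and 230 to 263. Progenitor markers had 18900 to 22800 and 28300 to 32400. The part of any of these cell types in the changes above was not tested.

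Of 18 genes that the study named, some of them from these samples and others from earlier work, 4 rose (22.2%) and 6 fell (33.3%) in the 100 nM course. Over all genes 7.69% rose and 10.2% fell. In DMSO 4 of the 18 rose and 6 fell as well, and 0 had a called difference between the courses, with limma's test. GRXCR1, a glutaredoxin domain protein, rose by 3.27 from 4.63, 4.77 and 4.25, with 2 of 3 day 8 arrays well above background, to 7.89, 7.92 and 7.63. LCP1, an actin-bundling plastin, rose from 5.51, 5.82 and 5.37 to 7.14, 7.11 and 6.80 (1.45, SE 0.14), and the neuropeptide CCK rose by 1.82, with 1 of 3 day 8 arrays well above background. In DMSO they rose by 3.38, 1.26 and 2.19. CENPU fell by 0.91, and TOP2A, the topoisomerase of dividing cells, was at least 3.10-fold lower. The TOP2A call was lost in 4 settings, that without day 8 replicate 1 among them. TOP2B, its counterpart in neurons, stood at 12.14 on day 8 and 12.33 on day 15, under the fold threshold. ACTA1, GDF15, PPP1R27 and ATF4 changed by 0.43, -0.51, 0.53 and 0.44 and were not called, and NFE2L2 and SLC1A1 were not well above background on any of the 6 arrays.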

How the data were processed

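Total RNA of 24 samples of LUHMES aggregates, 3 in each of 8 groups, was hybridised to Agilent SurePrint G3 Human 1-colour arrays. The deposited spot files hold raw Cy3 intensity and local background, extracted per the file headers with Feature Extraction 12.0.0.7 on slide 2 and 11.5.1.1 on slides 1 and 3, and a processed intensity from which the scanner software had subtracted background. The authors' deposited log2 table, background-corrected, quantile normalized and batch-corrected according to the study's methods, served as an alternative.

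Median spot intensities were corrected with normexp (offset 0), quantile normalized over 24 arrays and kept where 3 or more arrays exceeded the 95th percentile of negative control spots by a factor of 1.1. Outlier spots were set to missing. Spots were averaged per probe and probes per gene on the log2 scale. Of 50599 probes, 30275 were named by matching their RefSeq accession to GRCh38.p14. Only 21324 named genes were tested. The array was designed on hg19, so no probe coordinates are given.

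One limma model (limma 3.58.1, R 4.3.3) held 8 groups and the slide as a block, and gave both courses and their difference. A call required a fold change above 1.5 with a Benjamini-Hochberg adjusted p below 0.05. Levels per array have the slide effect subtracted. Where a gene was not well above background on any array of the dimmer day, its fold is given as a bound. Dim levels below the lowest signal well above background on their array were raised to it, and others entered as measured. The replicate number is the slide: deviations from group means correlated at 0.172 to 0.777 on the same slide (84 pairs). Across slides they correlated at -0.644 to 0.366, with a median of -0.355. Deviations from a group mean sum to 0, which by itself lowers the values across slides. Precision is limited by the number of arrays. The fit was tested on simulated data. Every column of a sample could be assigned.

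Named genes were the 12 largest called changes in each direction with non-overlapping arrays above background on both days, the 4 largest each way with a dim day, the 6 largest differences each way, the gene of each list with the smallest p in each direction, other list members as given, and genes named by the study. These genes and lists were chosen with earlier results of these data known. Alternatives covered background, scaling, filters, probe summary, batch, samples in the fit and leaving out each array. Figures were drawn with matplotlib 3.10.9. Some genes that met these rules are not reported here.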

Additional observations from a re-analysis of the deposited data

Results flagged for a closer look

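By limma's test the difference between the courses of 100 nM and DMSO aggregates was called for 443 genes. The following 23 are those among the genes named by rule, besides other list members given with their differences above. Values are given here as the log2 change with 100 nM minus that in DMSO. The exposed aggregates changed more upward in TXNIP (2.406), ARRDC4 (2.02), SPMIP6 (2.01), H1-10-AS1 (1.907), GPR39 (1.813) and PCDH8 (1.732). Smaller positive differences were found in CDH18 (1.256), PTPN3 (1.125), COL5A2 (0.9707), DBH (0.9353), AKR1C3 (0.7668), CBLN2 (0.6784) and HSPA12A (0.5869). The exposed aggregates changed more downward in BDKRB2 (-2.599), TNC (-2.432), FABP3 (-2.191), EGFL6 (-2.185), CDC42EP1 (-1.834) and PRR5-ARHGAP8 (-1.805). Smaller negative differences were found in KCNIP4 (-1.622), GAL (-1.484), ECEL1 (-1.329) and DHCR7 (-0.6204). Of these genes, 12 were chosen by the size of this difference.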

How the results depend on the processing

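The 100 nM course gave 1640 rising and 2180 falling genes, and 976 and 1105 with a normexp offset of 50, where the DMSO course gave 801 and 693. Genes of 50 nM called in the opposite direction in the 100 nM course then numbered 111 and 93. They are named reversing genes here, whatever they did in DMSO. With the processed signal 3213 genes rose with 100 nM, 2381 rose in DMSO and 373 had a more negative difference. Without the replicate block and without batch correction the difference between courses gave 43 and 44 genes and the reversing genes numbered 107 and 89, while the 100 nM course gave 1215 and 1608. With ComBat in place of the block it gave 1617 and 2134, and from the authors' deposited values 1525 and 1909. Fitting the 6 arrays of 100 nM alone gave 827 and 902 genes, with 62 and 60 members of the lists against 97 and 105, and fitting 12 arrays gave 12 and 12 differences. Slides 2 and 3 alone gave 16 and 26 differences and 110 reversing genes that were raised by 50 nM.

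Leaving out each array in turn gave 1458 to 1826 rising and 1745 to 2577 falling genes in the 100 nM course. It gave 141 to 222 more positive and 147 to 282 more negative differences, 147 without day 8 100 nM replicate 1 and 154 without day 15 DMSO replicate 2. With the genes of 50 nM chosen anew each time, the reversing genes numbered 172 to 195 and 141 to 166, and the list members 90 to 100 and 89 to 109. The DMSO course gave 1120 to 1188 and 1191 to 1363.

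Of 1918 changes of named genes across these alternatives, 1832 kept direction and call, 80 lost the call and 3 gained it. The 3 others turned with the processed signal, TOP2B to -0.0025, NFE2L2 to 0.98 and SLC1A1 to 0.41, none of them called in the course. Of 276 differences, 256 kept direction and call and 20 lost the call. The cause of these changes was not tested. Below a log2 level of 6 the 100 nM course gave 557 rising and 719 falling genes, and 448 and 449 without replicate 3 of day 15. At levels of 6 to 8 it gave 452 and 774, and 495 and 589 without that array.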
